A study of Homo sapiens with 2 samples.

Results

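The BCL2 family genes described here are 10 regulators of the mitochondrial route to apoptosis, taken as the rows of the deposited expression table whose gene symbol was BCL2, BCL2L1, MCL1, BCL2L11, BMF, BIK, BID, BAD, PMAIP1 or BAK1. Each symbol matched 1 row, so 10 of the 25343 rows were taken. All 10 reached a mean of 1 CPM over both libraries, as did 13803 genes in all. CPM is a gene's reads per 1000000 reads of its library, here after the authors' scaling between libraries. The libraries were 1 from C4-2B Con and 1 from C4-2B ENZR. C4-2B is a castration-resistant subline derived, through C4-2, from the human prostate cancer line LNCaP. Con is labelled sensitive to the antiandrogen enzalutamide and was kept in medium with DMSO. ENZR is labelled resistant and was kept in 20 µM enzalutamide, so the line and the presence of the drug in its medium cannot be told apart. Both sample titles carry the suffix shC, which the labels do not explain. No value has a replicate, so every difference below is one between 2 libraries. How far cultures of 1 line differ was not measured.

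As background, the family is sorted by what its proteins do at the outer mitochondrial membrane. Effectors such as BAK1 and BAX form the pores through which cytochrome c leaves, anti-apoptotic members such as BCL2, BCL2L1 (BCL-xL) and MCL1 hold effectors and their activators in check, and BH3-only members such as BCL2L11 (BIM), BMF, BIK, BID, BAD and PMAIP1 (NOXA) carry stress signals to both. All of them meet through the BH3 stretch, a short helix with a conserved leucine and a conserved aspartate, which fits into a groove of the anti-apoptotic proteins and is what BH3-mimetic drugs copy. In prostate tissue, withdrawal of androgen is known to cause apoptosis of luminal cells, and BCL2 is known as a gene that prostate cancers can switch on when they escape it.

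The BH3 stretch, which all 10 members share, is shown for each as the coding strand of the main GENCODE transcript, 5′ to 3′, on GRCh38. Capitals mark the leucine codon and, after 3 further codons, the pair made of a glycine, alanine or serine codon and an aspartate codon.
BCL2: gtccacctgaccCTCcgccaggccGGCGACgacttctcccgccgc
BCL2L1: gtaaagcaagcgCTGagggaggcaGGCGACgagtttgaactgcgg
MCL1: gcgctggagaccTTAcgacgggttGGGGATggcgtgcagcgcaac
BCL2L11: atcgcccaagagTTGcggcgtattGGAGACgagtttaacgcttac
BMF: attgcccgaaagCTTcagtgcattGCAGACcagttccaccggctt
BIK: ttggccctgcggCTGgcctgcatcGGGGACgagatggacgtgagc
BID: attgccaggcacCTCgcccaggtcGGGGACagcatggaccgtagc
BAD: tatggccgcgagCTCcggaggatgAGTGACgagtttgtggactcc
PMAIP1: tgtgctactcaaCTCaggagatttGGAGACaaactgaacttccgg
BAK1: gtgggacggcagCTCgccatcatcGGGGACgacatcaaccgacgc

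Each stretch lay within 1 coding exon. On the minus strand they lay at chr18:63318346-63318390 (BCL2), chr20:31721919-31721963 (BCL2L1), chr1:150578862-150578906 (MCL1), chr15:40104192-40104236 (BMF), chr22:17739412-17739456 (BID), chr11:64271619-64271663 (BAD) and chr6:33575384-33575428 (BAK1). On the plus strand they lay at chr2:111150091-111150135 (BCL2L11), chr22:43127704-43127748 (BIK) and chr18:59902661-59902705 (PMAIP1). The pattern of codons occurred once in the coding sequence of each member except BID, where it occurred 2 times and the occurrence most like the other members was taken. The pair most alike over the 45 bases was BIK and BAK1, with 30 bases the same (66.7%), and the pair least alike was MCL1 and PMAIP1, with 13 (28.9%). No stretch of 50 bases, the length of the reads, was shared between the transcripts of any 2 members. Reads of 1 member could therefore not match another member exactly, although some members share such stretches with other genes, as given with each of them.

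The Con library held 21024484 recovered reads, each equal to 0.0490 CPM, and the ENZR library 23479051, each equal to 0.0404 CPM. All 9 markers of a luminal prostate cancer line were at 1 CPM or more in both libraries, although KLK3, the androgen-induced gene of prostate-specific antigen, was at 1428 CPM in Con against 3.72 CPM in ENZR. The 6 leukocyte markers summed to 0.539 CPM in Con against 0.202 CPM in ENZR, with CD3E and HBB at 0 in both, and the 3 basal markers summed to 0.392 CPM and 0.0404 CPM. The 6 stromal and endothelial markers summed to 19.9 CPM and 47.4 CPM, of which COL1A1 made up 18.1 CPM and 44.4 CPM. Of the 6, the Con library had 2 above 1 CPM and the ENZR library 3. PECAM1 had 32 reads (1.57 CPM) in Con against 41 reads (1.66 CPM) in ENZR. LUM had 0 reads against 32 (1.29 CPM), while CDH5 was at 0 in both. The part of the markers in the results was not tested. In bulk RNA, fewer cells of a type and less RNA per cell cannot be told apart.

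The comparison asks how the genes that set the threshold for mitochondrial apoptosis stand in the line that grows in enzalutamide against its sensitive counterpart. None of the 10 members was at least 2-fold higher or lower in ENZR on the log2(CPM + 1) scale, where 6.69% of all measured genes passed upward, 4.64% downward and 11.3% in all. At 1.5-fold, 2 members, BMF and BID, were higher, against 13.6% of all measured genes, and 0 were lower, against 12.9%. Both directions together held 2 of 10 members and 26.5% of all measured genes. The median log2 ratio of the 10 members was 0.14, beside -0.01 for all measured genes, and the median size of the log2 ratio, whatever its sign, was 0.28 for the members and 0.32 for all measured genes. The ratios ran from BCL2L1 at -0.32 to BMF at 0.79, with 7 members above 0 and 3 below. Of all measured genes, 49.5% were above 0 and 50.5% below. All of those below 0 were anti-apoptotic or effector genes, and all 6 BH3-only members were above 0, PMAIP1 by only 0.01.

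**Figure D1:**
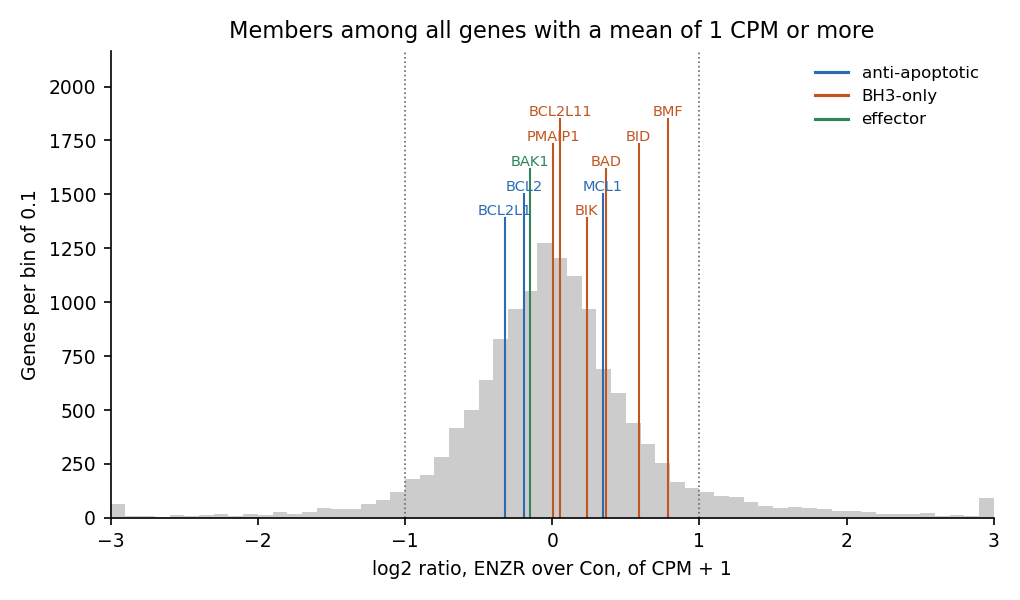
Histogram of the log2 ratio of ENZR over Con, computed on CPM + 1, for the 13803 measured genes (y axis, genes per bin; the end bins gather values beyond the axis), with a coloured line at each member's ratio by role and dotted lines at 2-fold. All 10 members lie between -0.32 and 0.79, inside the dotted lines.

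Because 1 library stands for each line, precision was described by the exact 95% binomial (Clopper-Pearson) interval of the ratio of the 2 read counts, called the counting interval below. It covers counting error only, and beside a fold given as lower it is the interval of Con over ENZR. The interval lay above 1 for 4 members (MCL1, BMF, BID and BAD), below 1 for 2 (BCL2L1 and BAK1), and held 1 for the other four, so it excluded 1 for 6 of 10 members. Among all measured genes it lay above 1 for 34.6%, below 1 for 36.6% and excluded 1 for 71.2%. TMM is the authors' scaling between libraries. Without it, the median log2 ratio of all measured genes moved from -0.01 to 0.10, and each ratio moved up with it. The interval then lay above 1 for BCL2L11 and BIK too and held 1 for BAK1. Among all 13803 measured genes it then lay above 1 for 6100, below 1 for 3979 and excluded 1 for 73%. No member's ratio changed sign under any of 4 other scalings.

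**Figure D2:**
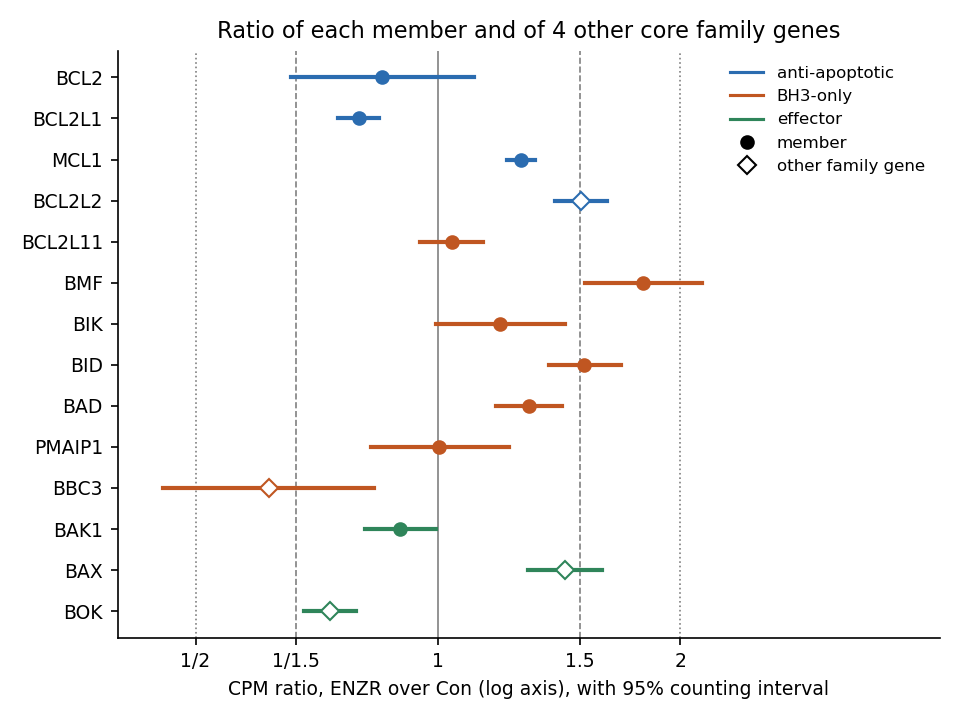
CPM ratio of ENZR over Con (x axis, log scale) for the 10 members (filled circles) and 4 other core family genes (open diamonds), coloured by role. Bars are 95% counting intervals, dashed lines mark 1.5-fold and dotted lines 2-fold. BMF lies farthest to the right at 1.80, BBC3 farthest to the left at 0.617.

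The 3 anti-apoptotic members did not move together. BCL2, the founding member and the target of venetoclax, was the least abundant of the 10, at 5.83 CPM in Con (119 reads) and 4.97 CPM in ENZR (123 reads). It was 1.17-fold lower in ENZR, with a counting interval of 0.903 to 1.52, so a difference was not detectable at this depth. BCL2L1 stood at 112 CPM in Con (2277 reads) and 88.9 CPM in ENZR (2199 reads), 1.25-fold lower (1.18 to 1.33). BCL2L1 makes a long anti-apoptotic and a short pro-apoptotic splice form, and values per gene do not separate them. Of the 50-base stretches in its transcripts, 39.4% also occur in ABALON, an antisense RNA that was not analysed here.

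MCL1, a short-lived protein on which many carcinoma cells depend, was the most abundant member in both libraries. It had 198 CPM (4041 reads) in Con and 251 CPM (6213 reads) in ENZR, a ratio of 1.27 (1.22 to 1.32). Of all measured genes, 76.5% had a log2 ratio at or below that of MCL1. None of the 50-base stretches of BCL2 or MCL1 occurred in another gene. The median log2 ratio of the 3 anti-apoptotic members was -0.19, with 1 above 0 and 2 below.

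**Figure D3:**
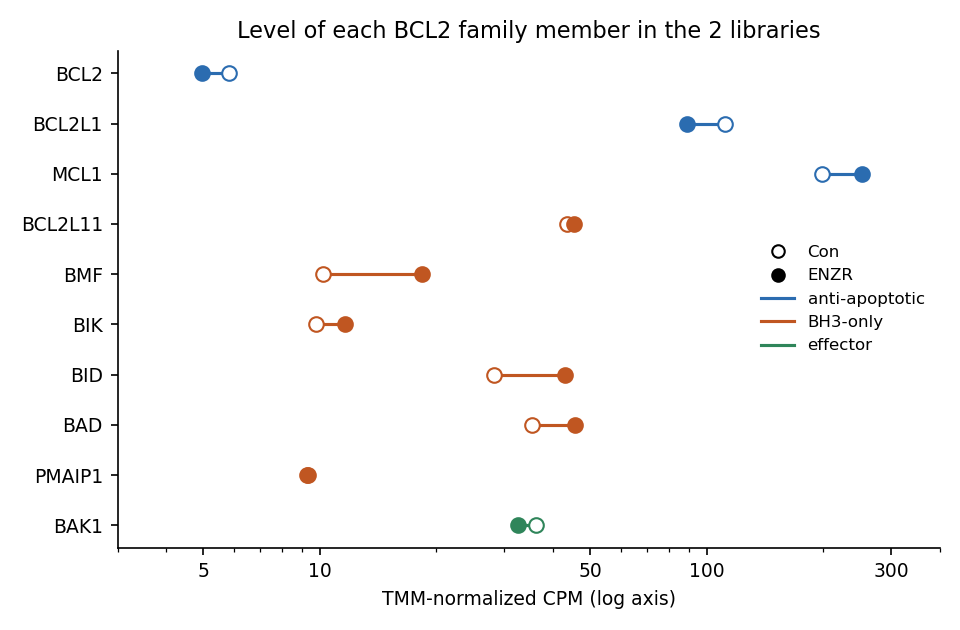
Level of each member in TMM-normalized CPM (x axis, log scale) in Con (open circles) and ENZR (filled circles), joined by a line and coloured by role. MCL1 is the highest at 198 and 251 CPM, BCL2 the lowest at 5.83 and 4.97 CPM, and the circles of PMAIP1 coincide.

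Among the 6 BH3-only members the median log2 ratio was 0.30. BMF, which is held on the cytoskeleton until damage or loss of attachment frees it, had the highest ratio, with 10.2 CPM in Con (208 reads) and 18.3 CPM in ENZR (453 reads). That is 1.80-fold higher (1.52 to 2.13), and 90.9% of all measured genes had a log2 ratio at or below it. BID, which caspase-8 cleaves to link death receptors to mitochondria, stood at 28.3 CPM (577 reads) and 43.0 CPM (1063 reads), 1.52-fold higher (1.37 to 1.69). Its log2 ratio of 0.59 lay just past 1.5-fold, which is 0.58 on that scale. Both genes are thus the 2 counted at 1.5-fold, and BID lies at the edge.

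BAD, a sensor of growth factor signals that 14-3-3 proteins hold when it is phosphorylated, had 35.3 CPM in Con (720 reads) and 45.8 CPM in ENZR (1132 reads). Its ratio was 1.30 (1.18 to 1.43). The gene overlaps GPR137, and 20.6% of its 50-base stretches also occur there. GPR137 itself had 39.5 CPM in Con and 36.1 in ENZR, the opposite order to BAD. BIK, an endoplasmic reticulum member, had 9.75 CPM (199 reads) and 11.6 CPM (288 reads), a ratio of 1.19 whose interval of 0.994 to 1.44 held 1.

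The other two BH3-only members lay nearest to a ratio of 1. BCL2L11, the activator BIM, stood at 43.6 CPM in Con (890 reads) and 45.3 CPM in ENZR (1121 reads), a ratio of 1.04 (0.951 to 1.14). PMAIP1, the p53-induced partner of MCL1, was at 9.26 CPM (189 reads) and 9.30 CPM (230 reads), a ratio of 1.00 (0.825 to 1.22). For both genes the interval leaves out changes of 1.5-fold in either direction, as far as counting error in these 2 libraries goes. In BCL2L11, 10.5% of the 50-base stretches also occur in MIR4435-2HG, and in BMF 7.29% occur in BMF-AS1. Neither of these RNAs was analysed here.

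BAK1, the only effector among the members, stood at 36.2 CPM in Con (739 reads) and 32.5 CPM in ENZR (804 reads). It was 1.11-fold lower (1.01 to 1.23), and the interval held 1 once the TMM scaling was undone. Of its 50-base stretches, 12.3% also occur in the pseudogene BAK1P1, which was not analysed here, and 2.08% in GGNBP1. The value of BAK1 is therefore uncertain, by an amount that was not measured.

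Levels of different genes can be compared only per length, and the transcripts behind each value are unknown. Divided by the median length of each gene's coding transcripts in GENCODE, MCL1 had 54.6 CPM per kilobase in Con and 69.3 in ENZR, and BAD had 45.2 and 58.7. BCL2L1 followed with 43.3 CPM per kilobase in Con and 34.5 in ENZR. BAK1 (16.9 and 15.2 CPM per kilobase), BID (14.2 and 21.6) and BMF (13.9 and 24.9) came next. BIK had 10.2 CPM per kilobase in Con and 12.2 in ENZR, BCL2L11 8.70 and 9.05, PMAIP1 5.77 and 5.79, and BCL2 1.16 and 0.993. This order rests on the transcript chosen, since the coding transcripts of BMF run from 492 to 4687 bases and those of BCL2L11 from 243 to 5231 bases. With the longest transcript BMF had 2.17 CPM per kilobase in Con and 3.91 in ENZR. With the shortest, BCL2L11 had 179 CPM per kilobase in Con, beside 178 for MCL1, and BID ran from 11.3 with its longest to 67.5 with its shortest. BCL2 stayed the lowest of the 10 at the shortest, the median and the longest length.

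Shares within a library do not depend on the scaling between libraries. Of the reads of the 3 anti-apoptotic members, MCL1 held 62.8% in Con (exact binomial interval 61.6% to 64.0%, of 6437 reads) and 72.8% in ENZR (71.8% to 73.7%, of 8535 reads). BCL2L1 held 35.4% in Con (34.2% to 36.6%) and 25.8% in ENZR (24.8% to 26.7%), and BCL2 1.85% and 1.44%. With BCL2L2, an anti-apoptotic gene outside the members, added to the sum, the MCL1 shares lay closer together, at 53.8% in Con and 59.2% in ENZR. Among the reads of the 6 BH3-only members, BMF held 7.47% in Con (6.52% to 8.51%, of 2783 reads) and 10.6% in ENZR (9.66% to 11.5%, of 4287 reads), and BID 20.7% (19.2% to 22.3%) and 24.8% (23.5% to 26.1%). BCL2L11 held 32.0% in Con (30.2% to 33.7%) and 26.1% in ENZR (24.8% to 27.5%). These are shares of reads, in which long transcripts weigh more. Per kilobase of median transcript length, BCL2L11 made up 8.88% of the BH3-only sum in Con and 6.84% in ENZR, BMF 14.1% and 18.8%, and BAD 46.1% and 44.4%. On the same scale MCL1 made up 55.1% of the anti-apoptotic sum in Con and 66.1% in ENZR. The read shares of MCL1, BMF and BID were larger in ENZR and those of BCL2L1 and BCL2L11 smaller, by more than counting error.

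**Figure D4:**
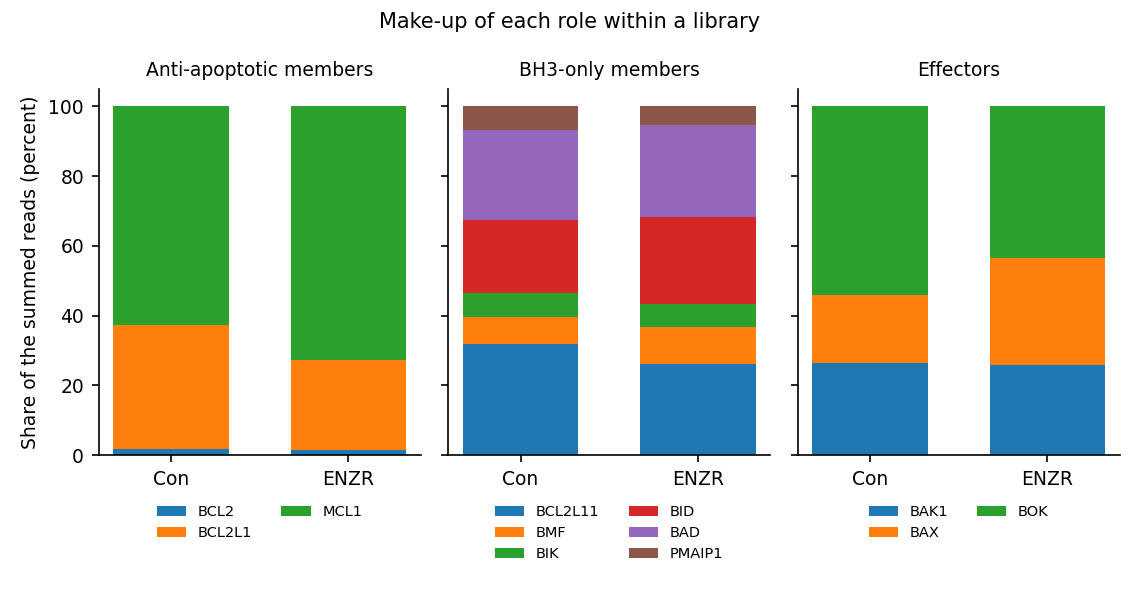
Share of each gene in the summed reads of its role (y axis, percent) in the Con and the ENZR library, for the anti-apoptotic members, the BH3-only members and the effectors BAK1, BAX and BOK. In ENZR the MCL1 part is larger (62.8% and 72.8%) and the BCL2L1 part smaller (35.4% and 25.8%).

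Ratios between members, chosen after the values were seen, put the same reads side by side. The reads of MCL1 per read of BCL2L1 numbered 1.77 in Con (1.69 to 1.87) and 2.83 in ENZR (2.69 to 2.97). The 6 BH3-only members together had 0.432 reads per read of the 3 anti-apoptotic members in Con (0.413 to 0.452) and 0.502 in ENZR (0.484 to 0.521), 1.16 times as many. With BCL2L2 counted among the anti-apoptotic genes, the values were 0.370 (0.354 to 0.387) and 0.408 (0.394 to 0.423), 1.10 times as many. These sums add genes of unlike length. Single pairs ran both ways. PMAIP1 had 0.0468 reads per read of MCL1 in Con and 0.0370 in ENZR, and BCL2L11 0.220 and 0.180, while BAD had 0.316 reads per read of BCL2L1 in Con and 0.515 in ENZR.

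The remaining core family genes were given by lists of their roles. BCL2L2 (BCL-w), an anti-apoptotic gene, stood at 52.8 CPM in Con against 79.5 CPM in ENZR, 1.51-fold higher (1.40 to 1.62), but 15.2% of its 50-base stretches are shared with the readthrough gene BCL2L2-PABPN1, so its value is uncertain. That gene had 81.8 CPM in Con and 99.9 in ENZR, more than BCL2L2 and in the same order. BCL2A1 and BCL2L10 had 0 reads in both libraries, which allows up to 0.147 CPM in Con against 0.121 CPM in ENZR. BAX, the effector beside BAK1, was at 26.9 CPM (549 reads) and 38.7 CPM (956 reads), 1.44-fold higher (1.29 to 1.60). BOK, another effector, was 1.36-fold lower (1.26 to 1.47), at 74.3 CPM and 54.6 CPM. The 3 effectors thus stood on both sides of 1, and BAX reads per BAK1 read numbered 0.743 in Con (0.664 to 0.831) and 1.19 in ENZR (1.08 to 1.31).

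BBC3 (PUMA), a p53-induced BH3-only gene, went against the BH3-only members, at 5.24 CPM in Con (107 reads) and 3.24 CPM in ENZR (80 reads), a ratio of 0.617 (0.456 to 0.832). HRK, a neuronal BH3-only gene below a mean of 1 CPM, had 1 read in Con against 13 in ENZR, and its ratio of 10.7 had an interval of 1.61 to 456. Over the 14 measured core family genes, 9 had a log2 ratio above 0 and 5 below, and on the log2(CPM + 1) scale 2 passed 1.5-fold higher, 0 passed 1.5-fold lower and 0 passed 2-fold in either direction. Of all measured genes, 49.5% were above 0 and 50.5% below. On the same scale 13.6% of them passed 1.5-fold higher and 12.9% lower, and 6.69% and 4.64% passed 2-fold. BCL2L2 (log2 0.58) and BBC3 (-0.56) lay just inside 1.5-fold on that scale, although their plain CPM ratios were past it.

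Each member was set beside the 20 nearest measured genes on its chromosome, 10 on each side in the RefSeq order. All 10 members lay within the range of their neighbours, 8 above the neighbours' median and 2 below. No share over all measured genes stands beside these counts, so neither is read as a trait of the members. BAK1, on chromosome 6, had neighbours with a median log2 ratio of -0.42, of which 15 were below 0. Its own -0.15 was therefore higher than its surroundings by 0.27. BCL2L1, on chromosome 20, was the reverse, at -0.32 among neighbours with a median of 0.25, of which 16 were above 0. MCL1 (0.34) and BID (0.59) lay among neighbours with medians of 0.15 and 0.20, and BMF (0.79) among neighbours with a median of 0.16. BCL2 and PMAIP1 both lie on chromosome 18, whose genes had a median of -0.30, and share 13 of their 20 neighbours. PMAIP1 stood 0.21 above its neighbours' median and BCL2 0.06 below. Whether gene copy number differs between the lines was not tested.

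**Figure D5:**
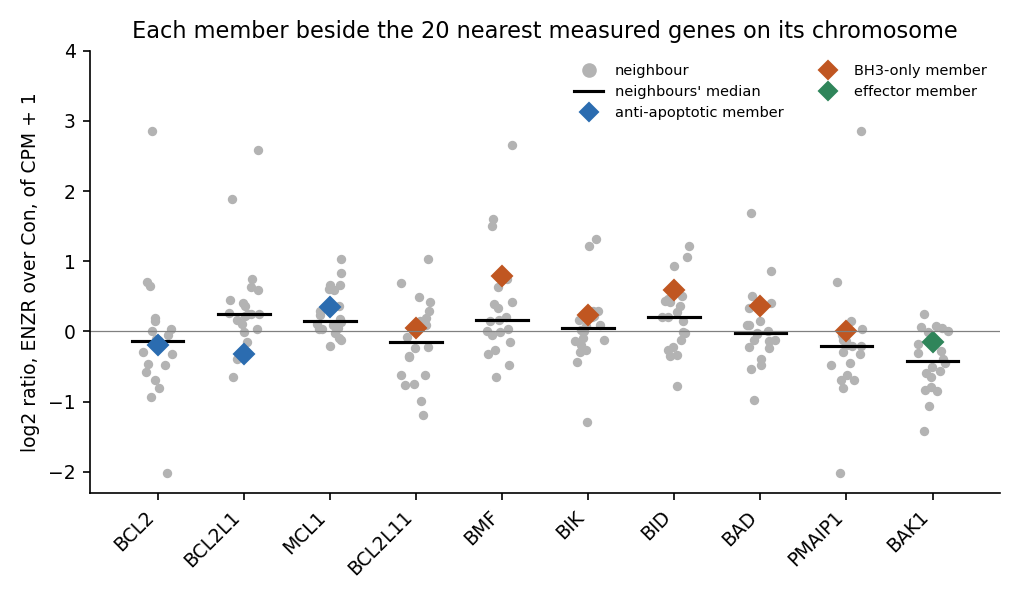
Log2 ratio of ENZR over Con, computed on CPM + 1 (y axis), of each member (coloured diamond), of its 20 nearest measured neighbours on the chromosome (grey points) and of the neighbours' median (black bar). BCL2L1 lies below its neighbours' median (-0.32 and 0.25) and BAK1 above (-0.15 and -0.42).

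Among 9 genes related to BCL2 by name or partial homology, 6 were below 0 and 3 above, with a median log2 ratio of -0.49, and none passed 2-fold. On the log2(CPM + 1) scale the lowest was BNIP3, a mitophagy receptor induced by low oxygen, at 146 CPM in Con against 94.5 CPM in ENZR, 1.55-fold lower (1.47 to 1.64). By the plain CPM ratio BCL2L14, on 63 and 44 reads, was lower still, at 1.73-fold lower (1.16 to 2.61). The highest was BCL2L15, at 1.26 (0.854 to 1.86) on 46 and 70 reads.

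Downstream of the mitochondrial pore, 10 genes of release and apoptosome formation had 5 members above 0 and 5 below, and a median of -0.02 (0.10 without the TMM scaling). ENDOG, a mitochondrial nuclease, was the single gene past 2-fold on the log2(CPM + 1) scale, at 57.7 CPM and 27.7 CPM, 2.08-fold lower (1.89 to 2.29), and with the TMM scaling undone its ratio was 0.521, short of 2-fold. APAF1, the scaffold of the apoptosome, and CASP9, the caspase it activates, were named after their values were seen. APAF1 stood at 11.6 CPM in Con (236 reads) and 23.6 CPM in ENZR (583 reads), 2.04-fold higher (1.75 to 2.38). CASP9 had 4.70 CPM (96 reads) and 9.66 CPM (239 reads), 2.05-fold higher (1.62 to 2.63). Both fell short of 2-fold after the pseudocount of 1 CPM, at 0.97 and 0.90 in log2, and passed it with the TMM scaling undone. CYCS, cytochrome c itself, was at 416 CPM and 387 CPM.

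The 6 other caspases had 3 above 0 and 3 below, a median of -0.14, and none past 2-fold. CASP8, the initiator that cleaves BID, was the lowest at 16.2 CPM in Con against 8.90 CPM in ENZR, 1.82-fold lower (1.53 to 2.17). Of 7 inhibitors of apoptosis, 6 were measured, 3 on each side of 0, with a median of 0.08. BIRC3, an NF-kB target, was the highest at 1.79 (1.31 to 2.47) on 60 and 130 reads, and BIRC5, survivin, the lowest at 1.23-fold lower (1.18 to 1.29). In the death receptor arm, 8 of 10 genes were measured, 3 above 0 and 5 below, with a median of -0.10 (0.01 without the TMM scaling). FAS was the highest at 1.41 (1.11 to 1.79) and the adaptor TRADD the lowest at 1.22-fold lower (1.03 to 1.44).

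Of 6 measured genes that set the stability of MCL1 and NOXA proteins, 4 were above 0, with a median of 0.09. The ubiquitin ligase gene BTRC was the highest at 1.45 (1.26 to 1.67), and MARCH5 the lowest at 1.17-fold lower (1.09 to 1.27). Among 11 measured kinases and 14-3-3 proteins that act on BAD, 5 were above 0 and 6 below, with a median of -0.02 (0.10 without the TMM scaling). AKT2 was the lowest at a ratio of 0.633 (0.602 to 0.665) and PIM2 the highest at 1.21 (1.08 to 1.35). Of 15 transcription factors known to act on family genes, 10 were above 0 and 5 below, with a median of 0.06. FOXO1, a forkhead factor known to act on the BIM gene, was the single gene of this list past 2-fold, at 5.98 CPM in Con (122 reads) and 2.35 CPM in ENZR (58 reads), 2.55-fold lower (1.85 to 3.55). With the TMM scaling undone its plain CPM ratio was 0.426, still past 2-fold, while its log2 ratio after the pseudocount was -0.97, just short of it. FOXO3, another forkhead factor of the list, went the other way and had the list's highest log2 ratio, 0.65. It stood at 82.5 CPM in Con (1683 reads) and 130 CPM in ENZR (3214 reads), 1.58-fold higher (1.49 to 1.67). FOXO3 was named after its values were seen. Over the 75 measured genes of all lists, 0 passed 2-fold upward and 2 downward, against 6.69% and 4.64% of all measured genes. With the TMM scaling undone these counts turned to 2 upward (APAF1 and CASP9) and 0 downward. The shares of all measured genes past 2-fold are given for the deposited scaling only.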

How the data were processed

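RNA-seq of 1 C4-2B Con and 1 C4-2B ENZR library was analysed. The deposited table holds a signal per gene and library, TMM-normalized CPM made by the authors. Bowtie2 2.1.0, RSEM 1.2.15, edgeR and the build hg19 appear in the submitters' processing notes, without roles. The sources used here give neither the gene annotation nor whether strand was used. The table had 0 other sample columns. All values (100%) were within 0.01 reads of a whole multiple of 1 step, so reads were recovered. They may be rounded RSEM estimates, which share out ambiguous reads. The implied library totals hold if no rows were dropped before deposit.

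With 1 library per line no count test was possible and no p-value is given. Log2 ratios used a pseudocount of 1 CPM and understate low genes, so folds were taken from CPM without it. Named genes were all members and, from 11 lists of 85 genes, every gene past 2-fold, otherwise each list's highest and lowest. The result of 1 gene named by this rule is not reported here. Members and lists were chosen with earlier results of these data known. MARCH5 had been turned into a date by a spreadsheet and was matched by its title. Transcript lengths, 50-base stretches and coding stretches came from GENCODE 29 (GRCh38), and RefSeq (GRCh38.p14) gave gene order only, for 97.4% of measured genes. A planned comparison of protein sequences was replaced by the coding stretches. Calculations used Python 3.11.15, scipy 1.17.1 and Biopython 1.88. Of these calculations, only the log2 ratios and the counting intervals were tested on simulated reads.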

Additional observations from a re-analysis of the deposited data

How the results depend on the processing

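Other pseudocounts (0.5 and 5 CPM), filters (none, and a mean of 5 CPM), 4 other scalings and subtraction of the neighbours' median left the count of members past 2-fold at 0 and moved the median log2 ratio of the 10 members between 0.11 and 0.26. The medians of the anti-apoptotic members ran from -0.21 to -0.06 and those of the BH3-only members from 0.25 to 0.41. The number at least 1.5-fold higher became 1 with a pseudocount of 5 CPM and with the neighbours' median subtracted, in place of 2. BAK1 turned to 0.27 with the neighbours' median subtracted. Its ratio kept its sign in the other 6 settings run on single members, and the other members kept theirs in all 7. Shares of reads moved when taken per length, and BCL2L11 moved most among those printed, from 32.0% to 8.88% in Con. No replicate could be left out, and no paired analysis was possible because each line has 1 library. The cause was not tested. Depth limits BCL2, BIK and PMAIP1, which rest on 119 to 288 reads per library, and also BMF, which had 208 reads in Con and 453 in ENZR. Stretches shared with other genes limit BCL2L1, BAD and BAK1, and to a lesser extent BCL2L11 and BMF.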
